A study of Mus musculus with 2 samples.

Results

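The genes that interferons switch on, together with the IRF and STAT transcription factors that act on them, were examined in mouse jejunum from pools labelled wild type and XBP1 knock-out. They are 48 genes listed by name for their known role, chosen with earlier results of these data known. They hold 30 effectors of the type I interferon response, 9 guanylate-binding proteins (GBP) and immunity-related GTPases (IRG), and 9 IRF and STAT factors. On the array 18193 genes had at least 1 probe set assigned to them alone, 45 of the 48 among them. Isg15, Ifi44 and Tgtp1 had no probe set assigned to them alone and are named only. All 45 others exceeded the signal floor on at least 1 array.

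The study hybridised 2 arrays. The control array held RNA pooled from 3 wild-type mice and the other held RNA pooled from 3 mice labelled as lacking XBP1, a transcription factor whose mRNA is spliced by IRE1 when unfolded proteins load the endoplasmic reticulum; it is called the knock-out-labelled pool here. RNA was taken from scrapings of the intestine, so epithelium, lymphocytes and stroma were read together, and fewer cells of a type and less RNA per cell cannot be told apart. Age, strain, treatment, the extent of the deletion and any driver of it were not given in the sources used here. With 1 array per genotype and pooled animals replicate error cannot be estimated and nothing was tested, so every statement below describes these 2 arrays.

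Type I and type III interferons act through Janus kinases on a complex that holds STAT2 and IRF9 and binds the interferon-stimulated response element (ISRE) of the effector genes. The interferon-gamma response runs through gamma-activated sites (GAS) and through IRF1, and the GBP and IRG GTPases are classical genes of that response. GBP and IRG proteins attack the vacuoles in which intracellular bacteria and parasites live, whereas many type I effectors block steps of viral replication. In the gut, interferon-gamma comes mainly from T cells and innate lymphocytes, and epithelial cells respond to both interferon-gamma and type III interferon.

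Promoter sequences are shown first, searched for letters like those of the ISRE and GAS. RefSeq windows of GRCm38.p6, which run from 250 bases before a gene's start to 50 after it, were present for 38 of the 48 genes. An ISRE-like match, GAAANNGAAA or TTTCNNTTTC on the other strand, lay in a window of 1079 of 27025 genes, 3.99%. A GAS-like match, TTCNNNGAA, which reads the same on both strands, lay in 2582 of them, 9.55%. The 2 motifs can overlap, and did so in 24 of 32851 windows. The ISRE-like match was present in all 7 GTPase genes with a window, in 12 of 22 type I effectors and in 2 of 9 factors, Irf2 and Stat2. The GAS-like match was present in 4 GTPase genes, 7 effectors and 3 factors with a window. A match describes these letters only and does not show that a factor bound there.

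The stretches from 130 bases before the start to the last base before it are printed 5′ to 3′ for 6 GTPase genes and, for comparison, for the type I effectors Rsad2, Ifit1 and Oas3, with ISRE-like and GAS-like matches in capitals.
Gbp2, chr3:142620533-142620662, plus strand: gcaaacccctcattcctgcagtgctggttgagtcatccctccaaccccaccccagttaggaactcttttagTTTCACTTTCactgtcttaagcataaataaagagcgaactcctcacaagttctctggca
Gbp3, chr3:142559914-142560043, plus strand: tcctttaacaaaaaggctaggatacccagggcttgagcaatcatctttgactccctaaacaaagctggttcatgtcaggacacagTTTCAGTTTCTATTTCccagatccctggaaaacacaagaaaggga
Gbp7, chr3:142530206-142530335, plus strand: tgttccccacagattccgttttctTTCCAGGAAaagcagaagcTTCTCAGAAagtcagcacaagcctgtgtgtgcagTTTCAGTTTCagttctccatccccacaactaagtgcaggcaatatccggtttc
Igtp, chr11:58199426-58199555, plus strand: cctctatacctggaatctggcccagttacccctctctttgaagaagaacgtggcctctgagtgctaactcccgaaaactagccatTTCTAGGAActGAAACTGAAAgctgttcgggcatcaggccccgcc
Irgm1, chr11:48871421-48871550, minus strand: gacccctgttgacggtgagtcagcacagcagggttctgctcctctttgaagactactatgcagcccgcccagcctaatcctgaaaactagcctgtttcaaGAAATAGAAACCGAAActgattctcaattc
Irgm2, chr11:58214847-58214976, plus strand: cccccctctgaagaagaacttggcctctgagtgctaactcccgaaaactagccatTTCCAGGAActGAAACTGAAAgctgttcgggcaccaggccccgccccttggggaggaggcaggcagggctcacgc
Rsad2, chr12:26456453-26456582, minus strand: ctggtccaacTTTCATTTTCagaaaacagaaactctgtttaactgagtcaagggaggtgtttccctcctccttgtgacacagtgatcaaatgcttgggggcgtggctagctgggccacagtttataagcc
Ifit1, chr19:34640759-34640888, plus strand: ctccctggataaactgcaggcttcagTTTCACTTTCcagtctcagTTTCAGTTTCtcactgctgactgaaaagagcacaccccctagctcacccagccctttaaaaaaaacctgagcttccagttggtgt
Oas3, chr5:120777660-120777789, minus strand: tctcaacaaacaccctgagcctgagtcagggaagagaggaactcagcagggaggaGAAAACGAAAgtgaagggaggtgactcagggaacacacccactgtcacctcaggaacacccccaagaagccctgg

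The ISRE-like matches of the GTPase genes lay close to the start, at -34 to -25 in Igtp, -64 to -55 in Irgm2, -53 to -44 in Gbp7 and -59 to -50 in Gbp2. In Igtp, Irgm2 and Tgtp1 a GAS-like match preceded the ISRE-like match by 2 bases. The stretches of Igtp and Irgm2 were nearly the same sequence, with 94 of 100 bases identical when Igtp from -100 to -1 was set against Irgm2 from -130 to -31. Irgm1 carried overlapping ISRE-like matches at -30 to -21 and -24 to -15, and Gbp3 at -45 to -36 and -39 to -30.

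**Figure D1:**
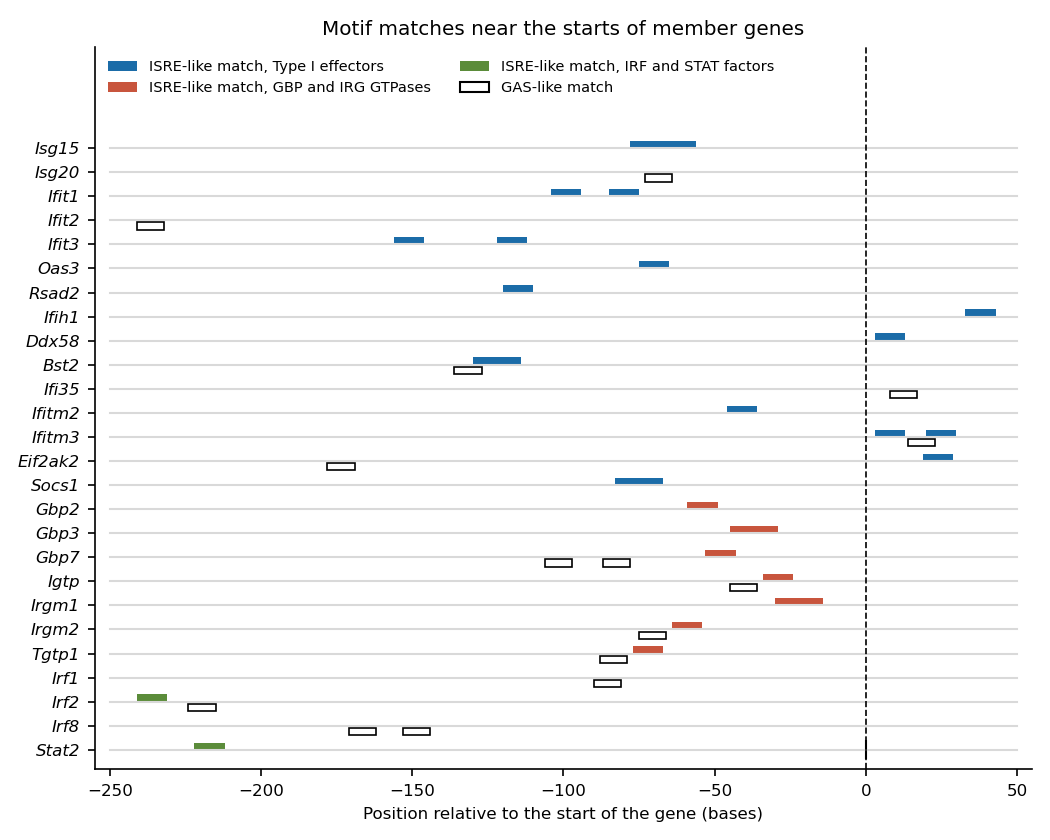
Positions of ISRE-like matches (filled bars, coloured by group) and GAS-like matches (open bars) from 250 bases before to 50 bases after the first listed start of each member gene with a match there; the dashed line is the start. The 7 GTPase genes each hold an ISRE-like match in the 100 bases before the start.

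Signals below are in the deposited linear units after both arrays were brought to the same 75th percentile. Signals under a floor of 68.1 units, the median over both arrays, were set to it, so a fold against the floor is a bound. Log2 ratios are given as knock-out-labelled minus wild type. Over the 12826 genes above the floor on at least 1 array, called measured here, the median log2 ratio was -0.11 and 39.8% had a ratio above 0. A difference of 2-fold or more was reached on the higher side by 2.25% of these genes and on the lower side by 5.08%, and 1.5-fold by 7.84% and 16.3%. Within 4350 genes read by several probe sets, the log2 ratios of those probe sets had an SD of 0.37, a technical yardstick that holds no variation between mice. Genes higher in the knock-out-labelled pool made up 30.6% of those past 2-fold, against 41.9% for the values as deposited, 41.5% after quantile normalization and 44.0% after loess. They made up 68.9% with the labelling spikes made equal and 95.5% with the hybridisation spikes made equal. Those scalings put the median of all measured genes at 0.20 and 0.62. Xbp1 itself read 8143 in wild type and 6782 in the other pool. Transcripts that keep the probed region would still be read, so Xbp1 is no check of the labels, on which each direction below rests.

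The 3 groups did not move alike. The GTPases were the most evenly shifted, with 7 of 8 higher in the knock-out-labelled pool and a median log2 ratio of 0.84, which is 0.95 above the median of all measured genes. The type I effectors lay on both sides of 0, with a median of 0.11, and the IRF and STAT factors were mostly lower, with a median of -0.22. Few members passed 2-fold, namely Ifitm3 and Isg20 on the higher side and Irf5 on the lower side. Of all measured genes, 2.25% did so on the higher side and 5.08% on the lower side. No test compared the groups. Relative to the median of all measured genes, the GTPase median was 0.88 to 1.0 higher, the effector median 0.19 to 0.25 higher and the factor median 0.06 to 0.12 lower under each of 6 scalings. Only quantile normalization and loess could change these differences other than through the floor. The other scalings multiply each array by a constant. After either of these 2 the GTPase median was 0.88 higher. The unadjusted factor median turned positive with either set of spikes made equal.

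**Figure D2:**
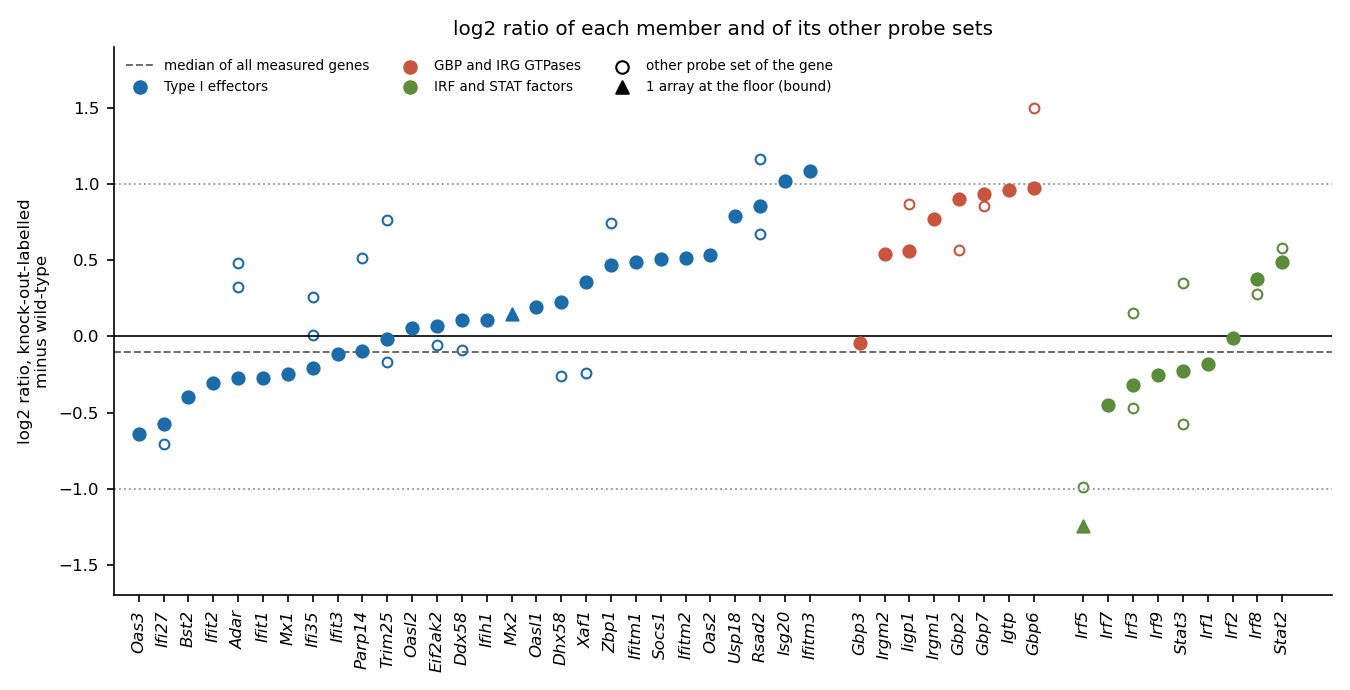
Log2 ratio of each measured member (filled symbols, triangles where 1 array was at the floor and the ratio is a bound) and of its other probe sets above the floor on at least 1 array (open circles), grouped and sorted by value. Dotted lines mark 2-fold and the dashed line the median of all measured genes at -0.11; 7 of the 8 GTPases stand between 0.54 and 0.98, while the effectors spread from -0.64 to 1.09.

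Among the GTPases, Igtp, an IRG protein also known as IRGM3 that guards host membranes from attack by other IRG proteins, read 2697 in wild type and 5249 in the pool labelled knock-out. It was 1.95-fold higher, and 2.58% of measured genes had a higher ratio. Irgm1, a regulator of the same kind that is needed for resistance to intracellular bacteria, went from 620 to 1060, a log2 ratio of 0.77. Irgm2, the remaining regulatory member, went from 890 to 1293, a log2 ratio of 0.54. All 3 regulatory IRG genes were therefore higher in the knock-out-labelled pool. Igtp and Irgm2, whose promoter stretches are nearly identical, were 1.95-fold and 1.45-fold higher.

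Iigp1, an effector IRG that coats and breaks parasite vacuoles, went from 294 to 434, a log2 ratio of 0.56. Its second, dimmer probe set went from 119 to 218, a log2 ratio of 0.87. Both probe sets of this gene thus lay on the higher side.

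The guanylate-binding proteins gave the same picture with 1 exception. Gbp6 went from 258 to 507, 1.97-fold higher, and its second probe set went from 89.6 to 253, 2.83-fold higher. Gbp7, which helps to deliver oxidative and autophagic defence to vacuoles, went from 278 to 530 on one probe set and from 284 to 514 on the other, log2 ratios of 0.93 and 0.86. Gbp2, a GBP recruited to vacuoles of Toxoplasma, went from 176 to 330 and from 185 to 274, log2 ratios of 0.91 and 0.57. Gbp3 stood at 179 and 173, a log2 ratio of -0.05. Its promoter holds ISRE-like matches, as do those of Gbp2 and Gbp7, while no window was at hand for Gbp6. The Gbp3 ratio was above 0 in the other 5 scalings.

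None of the 8 measured GTPases passed 2-fold on the probe set used, beside 2.25% of all measured genes, whereas 5 of 8 passed 1.5-fold, beside 7.84%. With the values as deposited 4 passed 2-fold, and 2 did after quantile normalization or loess. All 8 were above 0 in these 3 settings, each of which also raised the median of all measured genes. Of the 12 GTPase probe sets, 11 had a ratio above 0, and the 4 genes with more than 1 probe set showed 1 sign each. For 7 of the 8 genes less than 10% of measured genes had a higher ratio. GBP and IRG genes are multigene families with related sequences, and how far a probe set also reads a relative is not given in the sources used here.

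**Figure D3:**
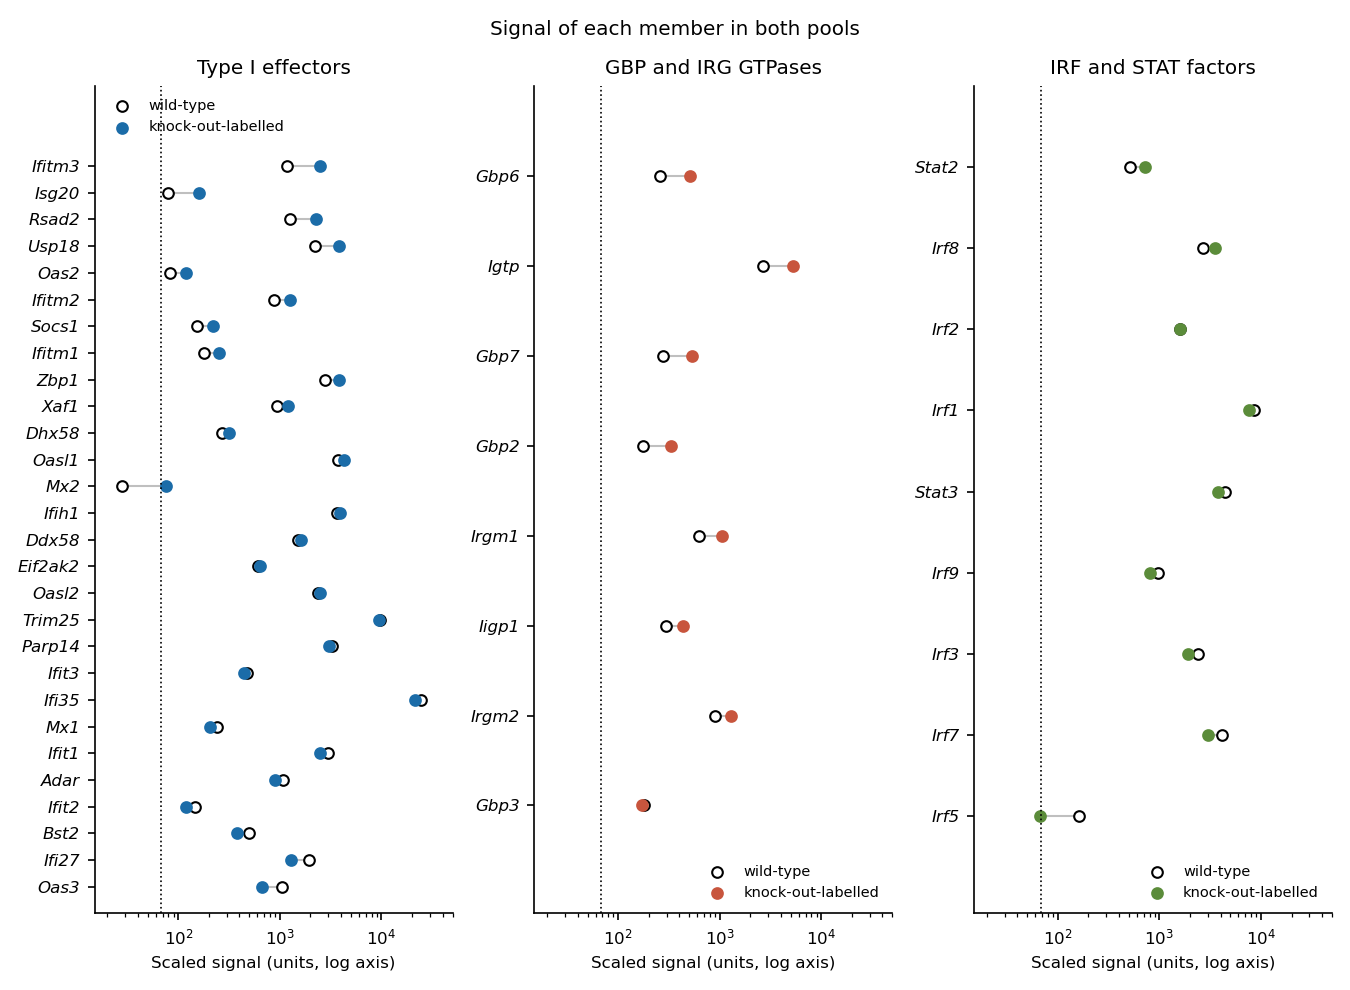
Scaled signal (log axis) of each measured member in the wild-type pool (open circles) and the knock-out-labelled pool (filled circles), sorted by log2 ratio within each group; the dotted line is the floor of 68.1 units. Igtp goes from 2697 to 5249 and Irf5 from 162 to just under the floor.

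Among the type I effectors, genes whose products block viral entry or replication held the 3 highest ratios. Ifitm3, a membrane protein that traps viruses in endosomes, went from 1171 to 2490, 2.13-fold higher, and 1.74% of measured genes had a higher ratio. Its neighbours in the same family were less shifted, with Ifitm2 at 882 and 1257 (log2 ratio 0.51) and Ifitm1 at 178 and 250 (0.49). The 3 Ifitm genes were thus all on the higher side. Isg20, an exonuclease acting on viral RNA, went from 79.1 to 160, 2.02-fold higher, but its wild-type signal lay just above the floor.

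Rsad2, which encodes viperin, an enzyme that makes a chain-terminating nucleotide, was read by 3 probe sets. The brightest read 1261 and 2285, a log2 ratio of 0.86, and the others 331 and 741, and 381 and 606, log2 ratios of 1.16 and 0.67. All 3 probe sets of Rsad2 were higher, and 1 of them passed 2-fold. Bst2, tetherin, which holds budding virus at the cell surface, stood on the other side, at 501 and 380 (-0.40).

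Usp18, the protease that removes ISG15 from proteins and dampens signalling at the type I receptor, went from 2222 to 3837, a log2 ratio of 0.79. Socs1, an inhibitor of Janus kinases, went from 154 to 219, a log2 ratio of 0.51. Both genes have 1 probe set, so these values have no second reading. The related inhibitor genes Socs3 and Cish, which are no members, were lower at -0.54 and -0.79.

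Sensors of foreign RNA and their regulators lay near 0, between -0.02 and 0.23. Ifih1, which encodes MDA5, read 3627 and 3916 (log2 ratio 0.11), and Ddx58, which encodes RIG-I, 1503 and 1618 (0.11). A dimmer probe set of Ddx58 had the other sign, at 291 and 273 (-0.09). Dhx58, which encodes their regulator LGP2, read 271 and 317 (0.23), and Trim25, the ubiquitin ligase of the RIG-I pathway, 9568 and 9441 (-0.02). A dimmer probe set of Trim25 read 452 and 765 (0.76), and a dim one of Dhx58 went from 81.5 to below the floor, a log2 ratio of at most -0.26. Zbp1, a sensor of Z-form nucleic acids that can trigger necroptosis, read 2782 and 3848 (0.47), and 1370 and 2294 (0.74) on its second probe set. Eif2ak2, the kinase PKR that halts translation on double-stranded RNA, read 603 and 631 (0.07), with 0.07 and -0.05 on its other probe sets. Adar, which edits double-stranded RNA, read 1080 and 892 (-0.28), while another of its probe sets went from 614 to 860 (0.48), so its sign is unsettled.

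The oligoadenylate synthetase genes, whose products activate RNase L or are relatives of such enzymes, did not share a direction. Oas3 went from 1045 to 670, 1.56-fold lower and the lowest of the effectors. Oas2 went from 82.8 to 120 (log2 ratio 0.54), close to the floor, while Oasl1 stood at 3710 and 4251 (0.20) and Oasl2 at 2366 and 2459 (0.06). The IFIT genes, whose proteins bind viral RNA, were slightly lower, with Ifit1 at 2983 and 2463 (-0.28), Ifit2 at 147 and 119 (-0.31) and Ifit3 at 475 and 438 (-0.12). Mx1, a dynamin-like antiviral GTPase, stood at 242 and 204 (-0.24), and Mx2 at 75.6 in the knock-out-labelled pool with the wild-type signal below the floor, at least 1.11-fold higher. Apart from Oas3 and Oas2, the genes of these families above the floor on both arrays lay within the yardstick SD of 0.37 from 0. For Mx2 the ratio is only a lower bound, and it was 1.44 with the floor at the 25th percentile.

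Of the remaining effectors, Ifi27, a mitochondrial protein of the interferon response, went from 1917 to 1289 and from 1787 to 1094 on its 2 probe sets, log2 ratios of -0.57 and -0.71. Ifi35, which forms complexes with NMI, stood at 24607 and 21296 (-0.21), with 0.01 and 0.26 on its other probe sets. Parp14, a mono-ADP-ribosyltransferase, stood at 3246 and 3030 (-0.10), with 94.6 and 135 (0.52) on a second, dim probe set. Xaf1, which antagonises the apoptosis inhibitor XIAP, went from 940 to 1203 on one probe set and from 771 to 653 on the other, log2 ratios of 0.36 and -0.24. Over all 28 measured effectors, 2 were at least 2-fold higher, 7.14% beside 2.25% of measured genes, and 0 at least 2-fold lower, beside 5.08%. Ratios were above 0 for 17 of 28, and the same 17 were above 0 in each of the 6 scalings. Of the 6, the scaling used for the ratios above had the lowest median of all measured genes. It also gave each of the 17 its lowest ratio, so the alternative scalings are no separate check of their sign. None of the other 11 effectors was below 0 in all 6 scalings, since the hybridisation spikes put all 28 above 0. Of 11 effector genes with several probe sets above the floor on at least 1 array, 3 showed a single sign.

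The transcription factors that drive these genes were mostly lower or near 0, where the median of all measured genes was itself -0.11. Irf5, which acts downstream of Toll-like receptors in macrophages, dendritic cells and B cells, went from 162 to just under the floor, at least 2.37-fold lower. Its second probe set went from 135 to below the floor, a log2 ratio of at most -0.99. Both probe sets were dim, and the ratio was below 0 in each of the 6 scalings, from -1.25 to -0.50. Irf7, which is itself interferon-induced and amplifies the type I response, went from 4150 to 3036, a log2 ratio of -0.45. Irf1, the factor that carries much of the interferon-gamma response, read 8583 and 7574 (-0.18). Irf9, the DNA-binding partner of STAT2, read 958 and 804 (-0.25), and Irf2, a competitor of IRF1, read 1606 and 1595 (-0.01).

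Irf3, the factor activated by cytosolic nucleic acid sensing, stood at 2374 and 1901 (-0.32) and at 529 and 587 (0.15) on a dimmer probe set, with -0.47 on another. Stat3, a factor of the interleukin-6, interleukin-10 and interleukin-22 pathways, gave 4417 and 3782 on its brightest probe set and 3449 and 2948 on the next, log2 ratios of -0.22 and -0.23. Its other 2 probe sets, each at the floor on 1 array, gave -0.57 and 0.35, so Stat3 and Irf3 each showed both signs. The 2 factors above 0 were Irf8, a factor of macrophage and dendritic cell development, at 2700 and 3503 (0.38), and Stat2 at 514 and 719 (0.49). Their second probe sets gave 0.28 and 0.58, and both genes were above 0 in each of the 6 scalings. Both had their lowest ratio in the scaling used here, so the alternative scalings are no separate check of that sign. Stat2 and Irf9 encode partners in the same complex and had ratios of opposite sign. Over the 9 factors, 1 was at least 2-fold lower, beside 5.08% of measured genes, and 0 at least 2-fold higher.

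**Figure D4:**
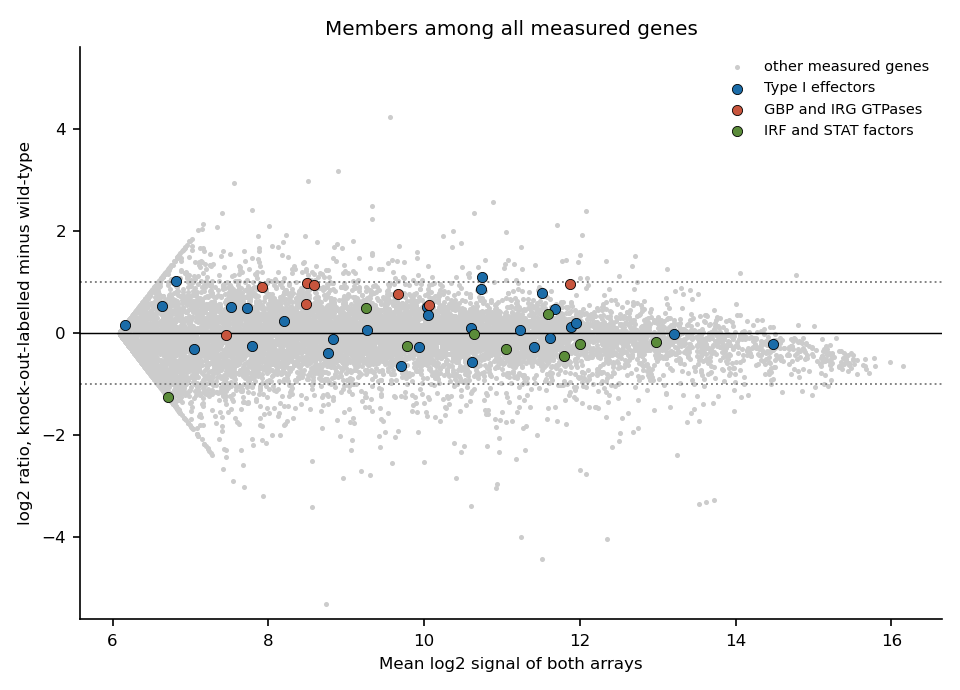
Log2 ratio against the mean log2 signal of both arrays for all 12826 measured genes (grey) and the members by group; dotted lines mark 2-fold, and the slanted edge at low signal is set by the floor. Apart from Gbp3, the GTPases sit along the upper side of the cloud, and few members lie outside the dotted lines.

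Other genes of the pathway were taken from 7 lists. Their counts past 2-fold stand beside 2.25% of all measured genes on the higher side and 5.08% on the lower side. Of 10 interferon genes listed, 6 had a probe set of their own and 2 exceeded the floor, both in the wild-type pool only: Ifna2 at 138, at least 2.03-fold lower, and Ifnb1 at 69.9, just above the floor. Ifng, the source of the interferon-gamma signal, did not exceed the floor on either array. Receptor chains and Janus kinases were measured for 9 of 9 genes, with 0 past 2-fold in either direction and a median of -0.33. The lowest were Ifnar1, a chain of the type I receptor (-0.73), Il10rb, shared by the type III and interleukin-10 receptors (-0.51), and Tyk2 (-0.48). The highest were Ifnar2 (-0.02) and the kinase genes Jak1 and Jak2 (-0.03 each). All 9 were below 0 at the common 75th percentile, but 3 were above 0 for the values as deposited, 2 after quantile normalization or loess, 5 with the labelling spikes and 9 with the hybridisation spikes made equal.

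Nucleic acid sensing and adaptor genes had a median of -0.25 over 12 measured of 15 listed, with 2 at least 2-fold lower and 0 higher. These were Ikbke, a kinase that activates IRF3 and IRF7, at 818 and 358 (2.29-fold lower), and Cgas, the cytosolic DNA sensor, at 146 and below the floor (at least 2.14-fold lower). Sting1, the adaptor of that sensor, had -0.69, and at the upper end stood Unc93b1, a chaperone of endosomal Toll-like receptors (0.43), Aim2 (at least 0.15) and Mavs (0.13). Of the 7 listed other STAT and IRF genes 4 were measured, with a median of -0.57. Stat4, a factor of interleukin-12 signalling, went from 138 to below the floor, at least 2.02-fold lower, and was the only one past 2-fold. Stat5b had -0.63, Irf4 at most -0.52 and Stat6 -0.20. Repressors of the pathway had a median of -0.08 over 7 genes and 0 past 2-fold, from Cish at -0.79, Socs3 at -0.54 and Pias1 at -0.12 up to Pias4 at 0.06 and Ptpn6 at 0.26. With the hybridisation spikes made equal the medians of these 3 lists were 0.53, 0.37 and 0.71. With the labelling spikes they were 0.08, -0.09 and 0.25, and the repressor median was 0.02 as deposited.

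A further list of 52 interferon-induced genes outside the members, 40 of them measured, also lay on both sides of 0. Its median was 0.17, and 23 of 40 ratios were above 0, beside 39.8% of measured genes. Beside 2.25% and 5.08% of measured genes, 2-fold was passed by 2 of its genes (5.0%) on the higher side and 3 (7.5%) on the lower. The highest were Phf11d, at 154 with the wild-type signal below the floor (at least 2.26-fold higher), Trim30d at 1020 and 2299 (2.25-fold higher) and Apobec3, a restriction factor of retroviruses, at 98.2 and 191 (1.94-fold higher). Lowest were Lgals3bp, a secreted galectin ligand, at 7356 and 2682 (2.74-fold lower), Ly6e, a surface protein, at 2322 and 1033 (2.25-fold lower), and Sp100, a nuclear body component, at 462 and 218 (2.12-fold lower). The median was above 0 in each of the 6 scalings, from 0.17 to 0.94. The lowest value was that of the scaling used here, so the alternative scalings are no separate check of its sign.

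Interferon-gamma targets of chemotaxis and antigen presentation were split. Over 13 genes the median was -0.02, with 1 at least 2-fold lower and 0 higher, beside 5.08% and 2.25% of measured genes. The immunoproteasome gene Psmb9 went from 3911 to 6556 (0.75), the peptide transporter gene Tap1 from 1764 to 2773 (0.65), and Cxcl9, a chemokine almost specific to interferon-gamma, from 190 to 255 (0.43). In contrast Cxcl10 went from 389 to 79.2 (-2.30), Cxcl11 from 705 to 374 (-0.91) and B2m from 53752 to 32896 (-0.71). These chemokines share a receptor, and their ratios did not share a sign. The median turned to between 0.05 and 0.76 in the other 5 scalings.

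Markers of the cells that could carry these transcripts were read on the same arrays. For the epithelium 9 of 10 genes had a probe set and all were above the floor on both arrays, with summed signals of 367130 in wild type and 230580 in the pool labelled knock-out. Ileal Slc10a2 and colonic Car1 were at the floor in both pools, while Car4 went from 5786 to 13769 and Slc26a3 stood at 6731 and 6291. For T and natural killer cells the sums over 12 genes were 23576 and 19604, with Cd4 and Cd8b1 at the floor in both pools. For B and plasma cells the sums over 6 genes were 12619 and 8990, and for macrophages and dendritic cells over 10 genes 8696 and 4232, with Siglech, a marker of plasmacytoid dendritic cells, at the floor in both. Fibroblast, muscle and endothelial genes summed to 1783 and 2207 over 8 genes, with Pecam1 at the floor in both, and ileal genes to 387 and 179 over 3 and colonic genes to 12595 and 20188 over 4. The epithelial sum was thus 1.59-fold lower, the T and natural killer sum 1.20-fold, the B and plasma cell sum 1.40-fold and the macrophage and dendritic cell sum 2.05-fold. Beside these sums stood higher GTPase signals, a higher signal of Irf8 (2700 and 3503) and lower, dim signals of Irf5 and Stat4. Single genes gave large parts of the immune cell sums: Gzma at 15894 and 11953, Jchain at 11524 and 8046, and Lyz2 at 4093 and 1234. Of 9 measured macrophage and dendritic cell genes 2 were above 0, Flt3 (at least 2.18-fold higher) and Itgam (0.26). The sums are given only for the scaling used here. For the epithelial and immune cell lists, the direction of the median log2 ratio depended on the scaling. The median log2 ratios of the epithelial, T and natural killer, B and plasma, and macrophage and dendritic cell lists were -0.63, -0.35, -0.34 and -0.64. They were below 0 in 5 of the 6 scalings and became 0.15, 0.37, 0.44 and 0.14 under the hybridisation spike scaling. The epithelial median shrank to -0.29 after loess and to -0.07 after quantile normalization. With the labelling spikes the T and natural killer and the B and plasma cell medians were -0.018 and -0.015. The part of these cell types in the results was not tested.

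**Figure D5:**
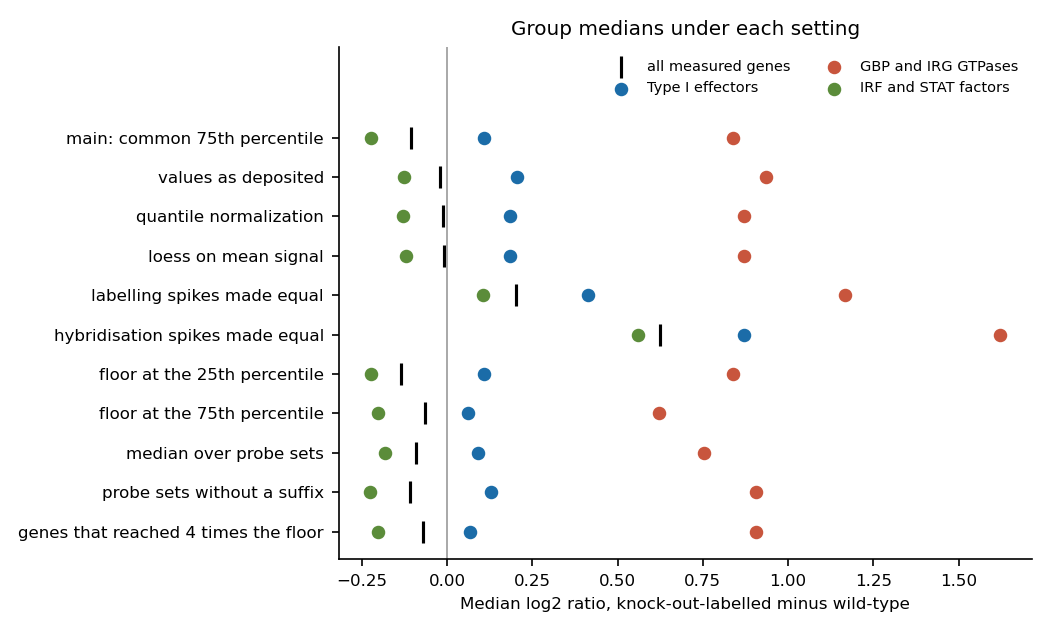
Median log2 ratio of the 3 groups (coloured points) and of all measured genes (black bars) under the main setting and 10 alternatives. The GTPase median stays 0.69 to 1.01 above that of all measured genes, and the factor median stays below it while crossing 0 when spikes are made equal.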

How the data were processed

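The deposited intensity values are linear MAS5 signals, 1 per probe set of an Affymetrix whole-genome mouse array, per the submitters' processing notes. Its version is not given in the sources used here, and no detection calls were used. Both deposited columns had a trimmed mean of 500.0 (2 percent at each end), so the authors scaled them to a common target. The number of arrays, 1 per genotype, limits the precision.

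Of 45037 probe sets that are not controls, 34945 had 1 gene symbol in the platform annotation, updated by Entrez number through RefSeq GRCm38.p6 (99.4% matched). The 932 with several symbols were left out, and 9160 are unnamed here. Arrays were multiplied by 1.034 (wild-type) and 0.967 to a common 75th percentile, signals were floored at the 50th percentile of both arrays, and log2 was taken. A gene took its probe set with the highest mean log2 signal. Members at least 2-fold apart were counted beside the same share of all measured genes. All members are named, and other lists by their extremes. Members and lists were chosen with earlier results of these data known. The steps were tested on simulated data. The 6 scalings are the common 75th percentile, values as deposited, quantile normalization, loess (span 0.3), and labelling or hybridisation spikes made equal. Other alternatives changed the floor, the probe set, the genes kept and the threshold. Python 3.11.15, pandas 2.3.3, NumPy 2.4.6 and statsmodels 0.14.6 were used.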

Additional observations from a re-analysis of the deposited data

How the results depend on the processing

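With 1 array per genotype no setting adds a check across mice, and dim members near the floor are read with the least precision. The group medians kept their sign in all 10 alternatives to the scaling, floor, probe set and genes kept, except that the factor median turned to 0.10 with the labelling spikes and 0.56 with the hybridisation spikes made equal. Each alternative scaling raised the median of all measured genes, so these scalings are no separate check of the positive effector and GTPase medians. With the hybridisation spikes the effector median was 0.87 and the GTPase median 1.62. Counts past 2-fold moved more. For GTPases higher they were 4 as deposited, 2 after quantile normalization, 2 after loess, 5 with labelling spikes, 7 with hybridisation spikes and 1 with the median over probe sets, against 0. For effectors higher they were 4 and 11 with the labelling and hybridisation spikes, and 1 with the floor at the 75th percentile, with probe sets without a suffix or with only genes reaching 4 times the floor kept, against 2. In the settings that gave 1, Isg20 was no longer measured. No factor was 2-fold lower, so that the count was 0, with either spike scaling. It was also 0 with the higher floor or among the brighter genes, where Irf5 was no longer measured. With the hybridisation spikes 2 factors were 2-fold higher.

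At a threshold of 1.5-fold, 4 effectors and 5 GTPases were higher and 1 effector lower, and at 3-fold 0 effectors were higher and 0 factors lower. Over all measured genes the higher and lower counts, 288 and 652, became 711 and 321 with labelling spikes, 2641 and 126 with hybridisation spikes, 1139 and 2531 with the floor at the 25th percentile, and 85 and 219 with it at the 75th. They were 162 and 337 with only genes reaching 4 times the floor kept, 1005 and 2093 at 1.5-fold, and 55 and 135 at 3-fold. Of 419 log2 ratios of single members under the alternatives, 370 moved by less than the yardstick SD of 0.37, 49 moved by more, and 0 of the members past 2-fold changed sign. The hybridisation spike scaling moved every measured member by more than the yardstick and made up most of the 49. Many of the 370 could not move. A member with 1 probe set well above the floor keeps its ratio when the floor, the probe set or the genes kept are changed. What moves the spikes between the arrays was not tested.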

Other observations

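Members were also set out by the letters of their promoters, a description made after the values were seen. Of 35 measured members with a RefSeq window, the 19 with an ISRE-like match had a median log2 ratio of 0.49, from -0.64 to 1.09, and the 16 without one had -0.20, from -1.25 to 1.02. The groups are spread unevenly over that split: all 6 measured GTPases with a window hold a match, and 7 of 9 factors do not. Within the type I effectors the medians were 0.11 over 11 genes with a match and 0.06 over 9 without. Bst2, with a GAS-like and 2 ISRE-like matches, was lower at -0.40, and Isg20, with no ISRE-like match in 3 windows, was higher at 1.02.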
